A study of Mus musculus with 6 samples.

Results

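The lysosomal hydrolases and membrane proteins of the mouse ovary were described here through 37 genes, taken from a list of symbols and matched in the files by NCBI Gene ID. All 37 were found, among 45679 genes with a symbol, and all 37 passed the filter that left 16473 genes for testing. They comprise 9 cysteine proteases, 3 aspartic or serine proteases, 10 glycosidases, 6 lipid hydrolases and their activators, 7 membrane proteins and 2 regulators. Messenger RNA was sequenced from ovaries of wild-type BDF1 mice, a hybrid laboratory strain, in 3 groups of 2 libraries. The groups were labelled old MIT-001 (65 weeks, given MIT-001), old PBS (65 weeks, given the PBS vehicle) and young PBS (8 weeks, given PBS). MIT-001 is a small molecule that scavenges mitochondrial reactive oxygen species, and injections went into the abdomen at 0.5 mg/kg over 7 days. No group was a young one given MIT-001. The study used 40 old and 20 young mice, and the labels do not say which or how many gave each library, so every p-value here measures the spread between these libraries only, which may be technical.

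Lysosomes are acidic organelles in which proteins, glycolipids and cholesterol esters are broken down. Most of the soluble enzymes are tagged with mannose 6-phosphate in the Golgi and carried to the lysosome by mannose 6-phosphate receptors, while the limiting membrane is coated with heavily glycosylated proteins such as LAMP1 and LAMP2. The transcription factor TFEB binds a short E-box element in the promoters of many of these genes. In the ovary, macrophages and cells that make steroids are both known for abundant lysosomes, the first for engulfing dying cells and the second for handling cholesterol esters.

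Values are TPM, an abundance scaled for gene length and library total, so levels of different genes could be set side by side. The libraries were close in depth, with 6.34 to 7.14 gigabases of aligned reads each as the deposited coverage and FPKM imply, and 14317 to 16304 genes reached a TPM of 1. The median ratio of TPM to FPKM was 1.89 in young PBS replicate 1 and 2.26 to 2.31 in the other libraries. The size of a gap between the young PBS libraries therefore depends on the unit. The age labels went against the ovarian markers. The summed TPM of 10 oocyte genes was 84.6 and 42.2 in the libraries labelled old MIT-001, 454 and 480 in those labelled old PBS, and 298 and 35.6 in those labelled young PBS. Gdf9, a growth factor secreted by the oocyte, stood at 22.8 and 9.35 TPM in old MIT-001, at 116 and 108 TPM in old PBS, and at 73.3 and 9.51 TPM in young PBS. Group names below are therefore those of the labels, and each direction holds for the libraries as labelled. Summed markers of surface epithelium and of oviduct and ciliated epithelium stood high in old MIT-001. The 5 oviduct and ciliated markers summed to 634 and 444 TPM in old MIT-001, 48.2 and 55.2 TPM in old PBS, and 73.9 and 154 TPM in young PBS, with Ccdc113 at 0 in some library. The 7 surface epithelium markers summed to 640 and 676 TPM in old MIT-001, 177 and 168 TPM in old PBS, and 266 and 366 TPM in young PBS, with none at 0. Single libraries stood out for Foxj1, a factor of ciliated cells (67.0 TPM in old MIT-001 replicate 2), and for Adipoq, a fat cell hormone (21.5 TPM in young PBS replicate 1). In old MIT-001 replicate 1 Foxj1 was at 0.867 TPM, its lowest value of the 6 libraries, although the oviduct and ciliated sum was high there. The part of these tissues in the results was not tested. The 2 young PBS libraries stood far apart in the lysosomal genes, as described next.

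The members covered a wide range of levels. Psap, the precursor of the saposins that present sphingolipids to their hydrolases, was the most abundant, with a mean of 2372 TPM over the 6 libraries. Lgmn, an asparagine-specific cysteine protease that matures other cathepsins, followed at 1620 TPM. Gm2a, the activator protein for ganglioside breakdown, averaged 1286 TPM, and Ctsd, the main aspartic protease of the lysosome, averaged 1044 TPM. Lamp1 averaged 913 TPM and Ctsl, a cysteine endopeptidase, 618 TPM. At the low end Manba, a beta-mannosidase, averaged 17.4 TPM. Gla, the alpha-galactosidase, averaged 14.9 TPM and Tfeb averaged 14.1 TPM. Together the members made up 1.17% and 1.27% of all TPM in old MIT-001, 1.26% and 1.07% in old PBS, and 0.939% and 1.93% in young PBS.

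**Figure D1:**
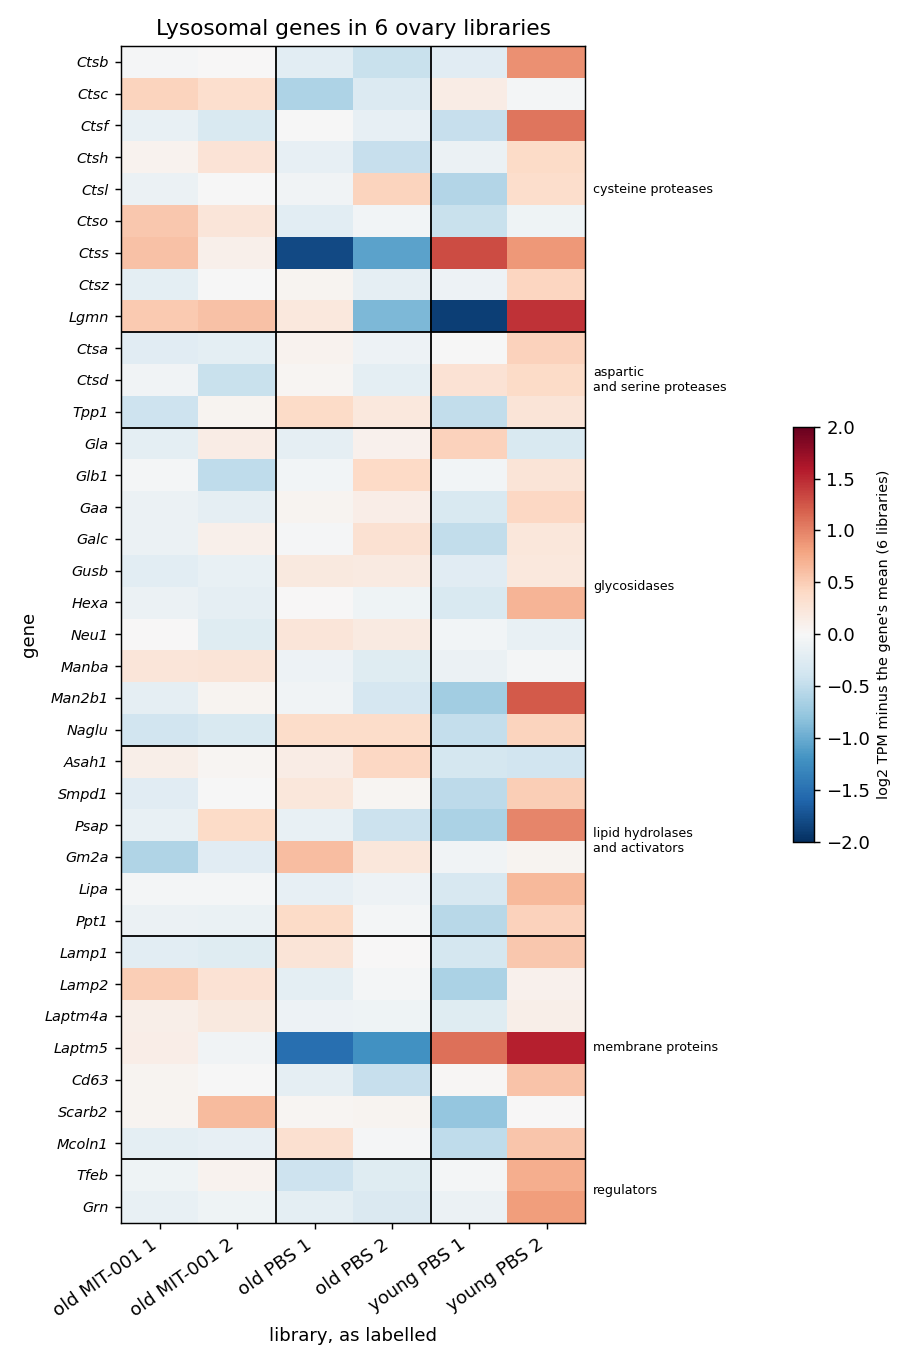
Levels of the 37 members in the 6 libraries, as log2 TPM minus the gene's mean over the libraries, with genes in rows grouped by role and libraries in columns (old MIT-001, old PBS, young PBS). Young PBS replicate 2 was the highest library for 22 members, against 17.6% of all genes tested. Young PBS replicate 1 was the lowest for 20, against 28.8% of all genes, while Laptm5 and Ctss were lowest in both old PBS libraries.

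Many lysosomal genes differed widely between the 2 young PBS libraries. Young PBS replicate 2 was above replicate 1 for 32 of 37 members, against 44.6% of all genes tested. At least a 1.5-fold difference in that direction was found for 20 members (54.1%), against 18.3% of all genes, and the median log2 difference of replicate 2 minus replicate 1 was 0.71 for the members and -0.10 for all genes. In old MIT-001 the same median was 0.03 with 0 members past 1.5-fold, and in old PBS it was -0.10 with 1 member past 1.5-fold in each direction. The young PBS libraries also differed over all genes, with 3018 of 16473 at least 1.5-fold higher in replicate 2 and 4326 lower. For the members, 1 was at least 1.5-fold lower. The median absolute log2 difference of all genes was 0.52 in young PBS, 0.24 in old MIT-001 and 0.23 in old PBS. For the members it was 0.71, 0.15 and 0.22. Lgmn lay at 1839 and 1919 TPM in old MIT-001, at 1475 and 682 TPM in old PBS, and at 346 and 3456 TPM in young PBS. Its 4 old libraries all sat between the 2 young ones, which were 9.98-fold apart. Psap stood at 1990 and 2865 TPM in old MIT-001, at 1977 and 1636 TPM in old PBS, and at 1418 and 4348 TPM in young PBS. The pattern was that of Lgmn, with the young libraries 3.07-fold apart.

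Man2b1, a lysosomal alpha-mannosidase, was at 59.3 and 69.6 TPM in old MIT-001, at 64.5 and 53.3 TPM in old PBS, and at 41.5 and 158 TPM in young PBS. Ctsf, a cysteine protease, was at 115 and 103 TPM in old MIT-001, at 127 and 114 TPM in old PBS, and at 92.5 and 268 TPM in young PBS. The young libraries were 3.81-fold apart for Man2b1 and 2.90-fold apart for Ctsf. For 14 of the 37 members all 4 old libraries lay between the 2 young PBS libraries, namely Ctsf, Lgmn, Gla, Gaa, Gusb, Hexa, Man2b1, Naglu, Smpd1, Psap, Lipa, Ppt1, Lamp1 and Mcoln1. No difference between age groups could be read for those genes beyond that spread, and the share of all genes with this pattern was not computed. The members with a lower level in young PBS replicate 2 than in replicate 1 were Ctsc, Ctss, Gla, Neu1 and Asah1.

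The same direction, by smaller steps, held for enzymes of several pathways. Ctsb, an abundant cysteine protease, was at 560 and 568 TPM in old MIT-001, at 488 and 418 TPM in old PBS, and at 484 and 1068 TPM in young PBS, the young libraries being 2.21-fold apart. They were 2.01-fold apart for Ppt1, which removes fatty acids from proteins, and 2.00-fold apart for Smpd1, the acid sphingomyelinase. For Hexa, the alpha subunit of hexosaminidase, they were 1.98-fold apart, and for Lipa, which hydrolyses cholesterol esters, 1.95-fold. Mcoln1, the calcium channel of the lysosomal membrane, was at 41.1 and 42.1 TPM in old MIT-001, at 58.8 and 46.4 TPM in old PBS, and at 33.1 and 69.3 TPM in young PBS. Scarb2, the receptor that carries glucocerebrosidase to lysosomes, was at 63.2 and 94.1 TPM in old MIT-001, at 62.4 and 63.1 TPM in old PBS, and at 35.4 and 61.2 TPM in young PBS. Cd63, a tetraspanin of late endosomes, was at 620 and 594 TPM in old MIT-001, at 523 and 431 TPM in old PBS, and at 604 and 887 TPM in young PBS. In Scarb2 the young libraries were the lowest of the 6, whereas in Cd63 the old PBS libraries were. The steadiest members over the 6 libraries were Gusb, the beta-glucuronidase, with its highest value 1.35-fold its lowest, Laptm4a, a small membrane protein (1.37-fold), and Neu1, the lysosomal sialidase (1.399-fold).

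Other genes moved with this split, and their part in it was not tested. The summed TPM of 8 luteal and steroidogenic markers was 34151 and 37647 in old MIT-001, 41621 and 36472 in old PBS, and 22224 and 59961 in young PBS, with 7 of the 8 higher in young PBS replicate 2. Star, which carries cholesterol into mitochondria for steroid synthesis, was at 2530 and 1955 TPM in old MIT-001, at 2446 and 2612 TPM in old PBS, and at 2101 and 3928 TPM in young PBS. The 12 macrophage markers did not split the young libraries in this way, with sums of 1291 and 1238 TPM there and 7 of 12 higher in replicate 2. Among 9 genes of lipid-laden and giant macrophages the sum was 334 TPM in young PBS replicate 1 and 666 TPM in replicate 2, with 3 of 9 higher in replicate 2. In whole ovary, fewer cells of a type and less RNA per cell cannot be told apart.

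**Figure D2:**
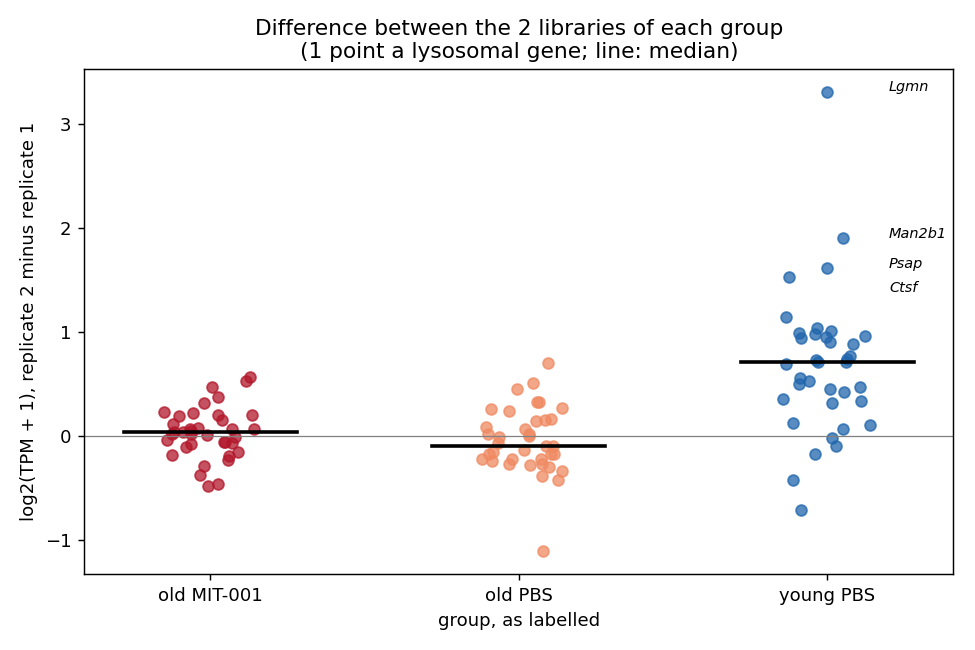
Log2 difference of replicate 2 minus replicate 1 within each group (old MIT-001, old PBS, young PBS) for each member, in log2(TPM + 1) units, with 1 point per gene. The young PBS points centre on a median of 0.71 and reach beyond 3 for Lgmn, while those of the old groups centre on 0.03 and -0.10.

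The promoters of the members were searched for 3 words on both strands, since the E-box is the known binding element of TFEB and an ETS-type word is known from genes of myeloid cells. A window of 300 bases, from 250 before to 50 after the annotated start, was taken from RefSeq on GRCm38.p6 and was present for 34 of the 37 members. The core E-box CACGTG was found in 11 of the 34 (32.4%), against 8.09% of the 27025 genes with a window and 19 of 65 other lysosomal genes (29.2%). These 11 were Ctsa, Ctsd, Ctsf, Ctsl, Gaa, Gla, Glb1, Lamp1, Lgmn, Mcoln1 and Naglu. The longer palindrome TCACGTGA, which contains the core word, was found in 4 of 34 members (Ctsa, Ctsd, Gla and Mcoln1; 11.8%), against 1.12% of genes and 9 of 65 other lysosomal genes (13.8%). The word GAGGAAGT was found in 4 of 34 members (Ctsc, Ctss, Gla and Gusb; 11.8%), against 3.69% of genes and 1 of 65 other lysosomal genes (1.54%). A match is a run of letters and does not show binding.

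The windows of 5 genes are written out below, from 250 bases before the start to 8 bases after it, as examples of E-box promoters or because they belong to the members that separated the groups most. They are Lamp1 at chr8:13158911-13159168 on the plus strand, Ctsd at chr7:142387820-142388077 on the minus strand, Mcoln1 at chr8:3500269-3500526 on the plus strand, Ctss at chr3:95526536-95526793 on the plus strand and Laptm5 at chr4:130913066-130913323 on the plus strand. Each is given 5′ to 3′ on the gene's strand, with matches in capitals.
Lamp1: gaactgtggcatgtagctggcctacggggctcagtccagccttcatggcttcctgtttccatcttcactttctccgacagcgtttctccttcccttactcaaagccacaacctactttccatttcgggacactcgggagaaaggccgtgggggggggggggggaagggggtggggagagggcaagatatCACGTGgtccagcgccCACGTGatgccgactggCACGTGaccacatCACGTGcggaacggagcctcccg
Ctsd: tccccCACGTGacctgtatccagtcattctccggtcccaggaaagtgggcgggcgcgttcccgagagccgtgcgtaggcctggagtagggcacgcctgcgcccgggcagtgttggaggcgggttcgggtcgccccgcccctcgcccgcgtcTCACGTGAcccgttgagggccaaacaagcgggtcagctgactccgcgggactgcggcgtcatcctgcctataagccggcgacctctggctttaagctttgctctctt
Mcoln1: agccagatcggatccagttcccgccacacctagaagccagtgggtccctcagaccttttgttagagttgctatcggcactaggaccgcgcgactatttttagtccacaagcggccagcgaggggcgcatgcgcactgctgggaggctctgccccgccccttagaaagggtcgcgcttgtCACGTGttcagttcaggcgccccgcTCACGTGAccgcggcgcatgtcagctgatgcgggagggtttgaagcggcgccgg
Ctss: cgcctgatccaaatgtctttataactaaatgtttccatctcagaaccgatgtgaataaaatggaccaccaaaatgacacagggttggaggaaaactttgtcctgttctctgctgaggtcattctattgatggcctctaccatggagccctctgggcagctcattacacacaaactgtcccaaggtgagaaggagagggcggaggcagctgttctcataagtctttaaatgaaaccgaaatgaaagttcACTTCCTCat
Laptm5: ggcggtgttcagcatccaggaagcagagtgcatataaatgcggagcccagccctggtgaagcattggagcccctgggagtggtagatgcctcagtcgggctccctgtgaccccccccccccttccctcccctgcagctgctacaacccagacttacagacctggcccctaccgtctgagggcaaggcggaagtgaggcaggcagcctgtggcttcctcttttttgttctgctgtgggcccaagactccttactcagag
Lamp1 held 4 CACGTG words within 61 bases of the start. Ctsd and Mcoln1 held 2 each, of which 1 in each gene was the longer TCACGTGA. In Ctss the capitals ACTTCCTC are GAGGAAGT read on the other strand, beginning 2 bases before the start. None of the 3 words was in the Laptm5 window. That window belongs to an annotated start inside the gene's interval, which begins at 130912890. Bases before that interval were not searched.

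The comparison of old PBS with young PBS asked what differed with age in untreated ovaries. Laptm5 and Ctss showed the largest differences among the members, and both were lower in the libraries labelled old PBS. Laptm5, a lysosomal membrane protein of blood cells that takes part in the turnover of immune receptors, lies on chromosome 4 from 130912890 to 130936148 (mm10, plus strand, Gene ID 16792). It was at 39.0 and 34.1 TPM in old MIT-001, at 12.6 and 15.4 TPM in old PBS, and at 76.5 and 105 TPM in young PBS. No library of a group overlapped those of another, with young PBS highest and old PBS lowest. Group means were 36.5 ± 3.46 TPM in old MIT-001, 14.0 ± 1.95 TPM in old PBS and 90.8 ± 20.2 TPM in young PBS (SD, n = 2 each). The log2 fold change of old PBS over young PBS was -2.60 ± 0.25 (standard error, on the log2(TPM + 1) scale), with an adjusted p of 0.065 in limma over all 16473 genes.

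Ctss, a cysteine protease of antigen-presenting cells that remains active at neutral pH, lies on chromosome 3 from 95526786 to 95556405 (plus strand, Gene ID 13040). It was at 76.2 and 54.2 TPM in old MIT-001, at 14.5 and 24.2 TPM in old PBS, and at 125 and 92.7 TPM in young PBS. The groups again stood apart in the same order. Ctss averaged 65.2 ± 15.5 TPM in old MIT-001, 19.4 ± 6.86 TPM in old PBS and 109 ± 22.7 TPM in young PBS. Its log2 fold change of old PBS over young PBS was -2.46 ± 0.33, with an adjusted p of 0.107 in limma.

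Asah1, the acid ceramidase, lies on chromosome 8 from 41340646 to 41397644 (minus strand, Gene ID 11886) and was the single member higher in old PBS at an unadjusted p below 0.05. It was at 139 and 132 TPM in old MIT-001, at 142 and 171 TPM in old PBS, and at 99.8 and 98.2 TPM in young PBS. Both old groups stood above young PBS and next to each other. The log2 fold change of old PBS over young PBS was 0.65 ± 0.19 (limma, unadjusted p = 0.0147, adjusted p = 0.224).

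Over all 37 members, 17 were higher and 20 lower in old PBS than in young PBS, and 0 passed an adjusted p of 0.05 in limma, against 0.0364% of all genes (6 genes). At an unadjusted p below 0.05, 1 was higher, against 14.6% of all genes, and 2 were lower, against 3.55% of all genes. The 2 old PBS libraries were both above the 2 young ones for 4 members (Asah1, Gm2a, Neu1 and Scarb2), which is 10.8% against 38.1% of all genes. They were both below for 8 members (Laptm5, Ctss, Cd63, Tfeb, Ctsc, Grn, Ctsh and Ctsd), which is 21.6% against 11.0% of all genes. The median log2 fold change was -0.09 for the members and 0.23 for all genes, a difference of -0.32. That difference turned to 0.05 without young PBS replicate 2 and grew to -0.66 without young PBS replicate 1. Without replicate 1, 7 members passed the adjusted threshold, all lower in old PBS (Ctsb, Ctsf, Ctss, Man2b1, Lipa, Laptm5 and Grn), against 7.12% of all genes. Without replicate 2, 0 did, against 0.0917%. In both fits the lone young library is assumed to vary like the other groups. Centring each library on its median shifted the median of all genes to -0.09 and left 5 members higher and 32 lower.

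By role, 7 of the 9 cysteine proteases were lower in old PBS (median log2 fold change -0.39), and 3 of them were lower without overlap between the groups, against 11.0% of all genes. The rest of the 7 overlapped young PBS. Among these, Lgmn and Ctsf stood above young PBS replicate 1 in both old PBS libraries, and Ctsb and Ctsz had old PBS libraries on both sides of it. Ctsh, an aminopeptidase, was at 172 and 198 TPM in old MIT-001, at 147 and 119 TPM in old PBS, and at 151 and 214 TPM in young PBS. Both regulators lay lower in old PBS. Tfeb was at 12.8 and 14.3 TPM in old MIT-001, at 10.2 and 11.5 TPM in old PBS, and at 13.2 and 22.5 TPM in young PBS. Grn, the precursor of the granulins that support lysosomal function, was at 241 and 250 TPM in old MIT-001, at 232 and 218 TPM in old PBS, and at 245 and 478 TPM in young PBS. For both regulators the gap between old PBS and the lower young library was narrower than that between the young libraries, and neither log2 fold change (-0.63 for Tfeb, -0.60 for Grn) had an unadjusted p below 0.05. The glycosidases (6 higher, 4 lower; median 0.05), lipid hydrolases (4 higher, 2 lower; 0.18) and membrane proteins (4 higher, 3 lower; 0.04) showed no common direction, and all 3 medians became negative after median centring.

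**Figure D3:**
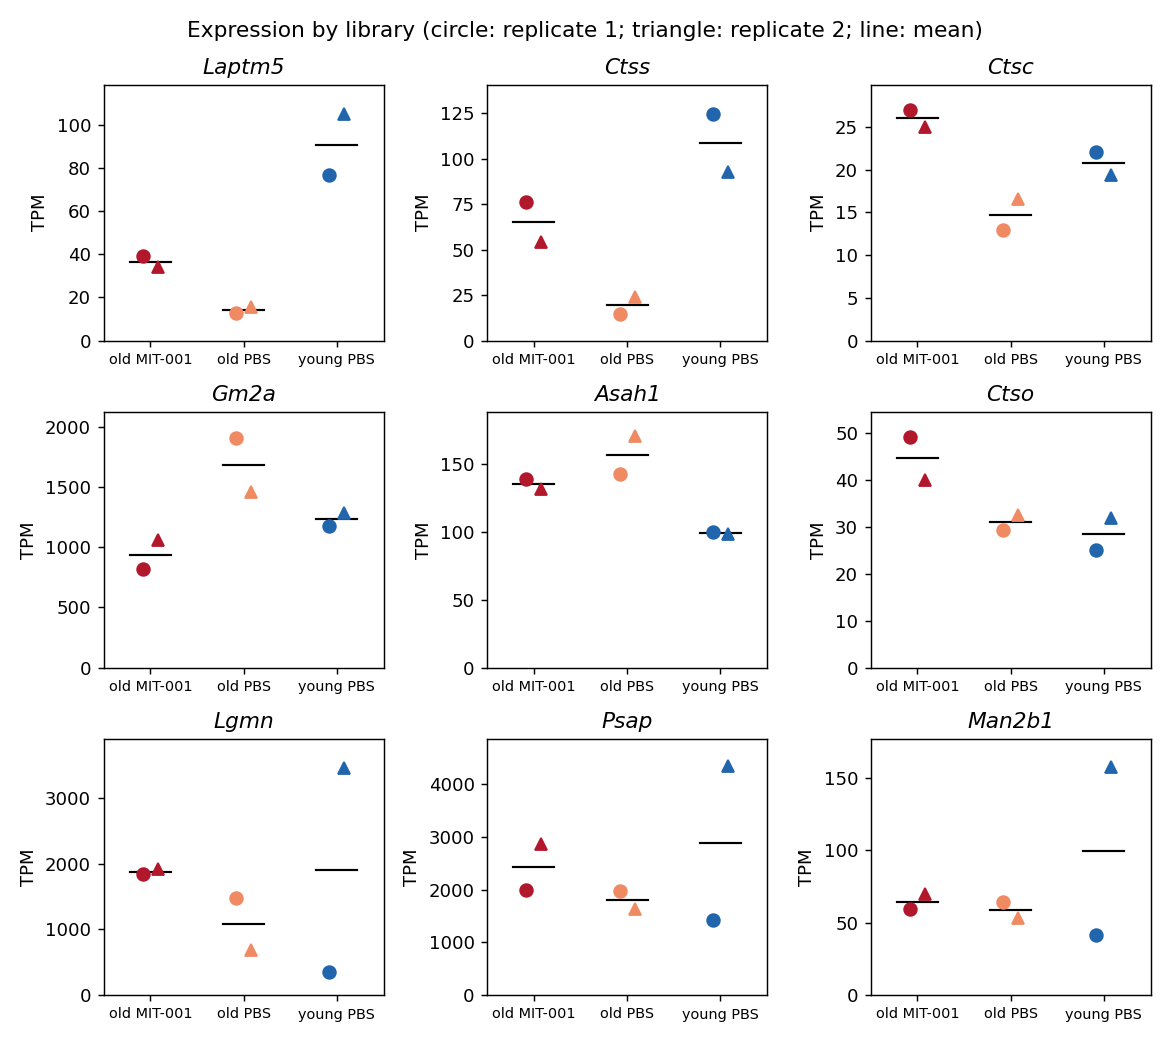
TPM of 9 members in each library, with old MIT-001 left of old PBS and young PBS at the right. Circles are replicate 1, triangles replicate 2 and lines group means. Laptm5 and Ctss show 3 separate groups, whereas Lgmn, Psap and Man2b1 show young PBS points on both sides of the old ones.

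A larger set of 90 other lysosomal genes, of which 86 passed the filter, also gave few differences by test. Without overlap, old PBS was above young PBS for 32.6% of the 86 and below it for 15.1%. These shares were 38.1% and 11.0% for all genes, and 10.8% and 21.6% for the members. Of the 86, 48 were higher and 38 lower in old PBS than in young PBS, 0 passed the adjusted threshold in limma, and 8 were higher and 4 lower at an unadjusted p below 0.05, against 14.6% higher and 3.55% lower of all genes. The smallest p belonged to Acp5, the tartrate-resistant acid phosphatase of macrophages and osteoclasts. Acp5 was at 41.0 and 46.9 TPM in old MIT-001, at 24.0 and 31.8 TPM in old PBS, and at 65.8 and 77.9 TPM in young PBS. It had the group order of Laptm5 and Ctss, with a log2 fold change of -1.34 ± 0.23 for old PBS over young PBS (limma, adjusted p = 0.155). The same order held for Slc11a1, a metal transporter of phagocytes, at 8.12 and 7.59 TPM in old MIT-001, 4.65 and 5.97 TPM in old PBS, and 16.3 and 11.5 TPM in young PBS (log2 fold change -1.23, adjusted p = 0.212 in limma). Higher in old PBS at an unadjusted p below 0.05 were, among others, Plbd1, a phospholipase B-like enzyme (log2 fold change 1.18), M6pr, the cation-dependent mannose 6-phosphate receptor (0.64), and Vps26a, a subunit of the retromer that returns sorting receptors to the Golgi (0.78). None of the 16 genes of the lysosomal proton pump had an unadjusted p below 0.05 in this comparison.

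The comparison of old MIT-001 with old PBS asked what the compound changed in aged ovaries. Laptm5 and Ctss were the 2 members with the smallest p and both were higher in old MIT-001, at levels between those of old PBS and young PBS. The log2 fold change of old MIT-001 over old PBS was 1.33 ± 0.25 for Laptm5 (limma, unadjusted p = 0.00156, adjusted p = 0.134). For Ctss it was 1.72 ± 0.33 (unadjusted p = 0.00175, adjusted p = 0.141). Laptm5 passed the adjusted threshold when only the 4 libraries compared were fitted (adjusted p = 0.048), as did 2.16% of all genes.

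Ctsc, which activates the serine proteases of granulocytes and mast cells, lies on chromosome 7 from 88278024 to 88315861 (plus strand, Gene ID 13032). It was at 27.0 and 25.0 TPM in old MIT-001, at 13.0 and 16.5 TPM in old PBS, and at 22.1 and 19.4 TPM in young PBS. Old MIT-001 was the highest group and none of the groups overlapped. The log2 fold change of old MIT-001 over old PBS was 0.79 ± 0.23 (limma, unadjusted p = 0.0151, adjusted p = 0.283). The 5 mast cell markers summed to 127 and 62.9 TPM in old MIT-001, 36.3 and 44.6 TPM in old PBS, and 134 and 58.8 TPM in young PBS. Of the 5, Cpa3, Mcpt4, Tpsb2 and Fcer1a were each at 0 in some library. The part of these markers in the Ctsc values was not tested.

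Gm2a, on chromosome 11 from 55097985 to 55113029 (plus strand, Gene ID 14667), was the member with the smallest p among those lower in old MIT-001. It was at 820 and 1060 TPM in old MIT-001, at 1911 and 1461 TPM in old PBS, and at 1180 and 1285 TPM in young PBS. Old MIT-001 was below both PBS groups and old PBS above them. Gm2a averaged 940 ± 169 TPM in old MIT-001, 1686 ± 318 TPM in old PBS and 1233 ± 74.2 TPM in young PBS (SD, n = 2 each). The log2 fold change of old MIT-001 over old PBS was -0.84 ± 0.30 (limma, unadjusted p = 0.0311, adjusted p = 0.355). The granulosa cell markers were likewise highest in old PBS, with summed TPM of 2590 and 3797 in old MIT-001, 7302 and 9229 in old PBS, and 3305 and 3040 in young PBS, and their part in the Gm2a values was not tested.

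Of the 37 members, 18 were higher and 19 lower in old MIT-001 than in old PBS, with a median log2 fold change of -0.04 against 0.03 for all genes. None passed an adjusted p of 0.05 in limma (0, against 0.0182% of all genes). At an unadjusted p below 0.05, 3 were higher, against 7.45% of all genes, and 1 was lower, against 4.36% of all genes. Old MIT-001 was above old PBS in both libraries for 16 members (43.2%, against 27.2% of all genes) and below it for 13 (35.1%, against 24.2% of all genes). The median absolute log2 difference between replicates of a group was 0.15 for the members in old MIT-001 and 0.22 in old PBS. For all genes tested it was 0.24 and 0.23.

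The roles are given beside the shares of all genes without overlap, 27.2% higher and 24.2% lower in old MIT-001. Among the 9 cysteine proteases 6 were higher in old MIT-001 without overlap (Ctss, Ctsc, Ctso, Ctsh, Lgmn and Ctsb), and the median log2 fold change was 0.48. Of the 7 membrane proteins, 5 were higher without overlap (Laptm5, Lamp2, Cd63, Laptm4a and Scarb2) and Lamp1 and Mcoln1 were lower without overlap (median 0.29). All 7 surface epithelium markers were also higher in old MIT-001 than in old PBS without overlap (median 2.07, 1 past the adjusted threshold in limma), and their part in the role counts was not tested. Lamp2, which is needed for the fusion of autophagosomes with lysosomes, was at 396 and 345 TPM in old MIT-001, at 245 and 274 TPM in old PBS, and at 182 and 299 TPM in young PBS. Lamp1 was at 774 and 753 TPM in old MIT-001, at 1063 and 899 TPM in old PBS, and at 700 and 1292 TPM in young PBS. So these closely related coat proteins lay on opposite sides of old PBS in old MIT-001, although neither difference reached an unadjusted p below 0.05.

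Of the 10 glycosidases 7 were lower in old MIT-001 (median -0.19), 5 of them without overlap, against 24.2% of all genes. Naglu, which removes N-acetylglucosamine from heparan sulfate, was at 92.7 and 97.3 TPM in old MIT-001, at 156 and 155 TPM in old PBS, and at 86.9 and 164 TPM in young PBS. Its log2 fold change of old MIT-001 over old PBS was -0.71 ± 0.31 (limma, unadjusted p = 0.0651). Manba was the glycosidase higher without overlap, at 20.4 and 20.6 TPM in old MIT-001, 16.1 and 14.6 TPM in old PBS, and 16.0 and 16.7 TPM in young PBS. All 3 aspartic and serine proteases were lower (median -0.20), as were 4 of the 6 lipid hydrolases and activators (median -0.23). Each of these role medians kept its sign with FPKM, median centring, quantile normalization and rescaling without abundant transcripts.

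**Figure D4:**
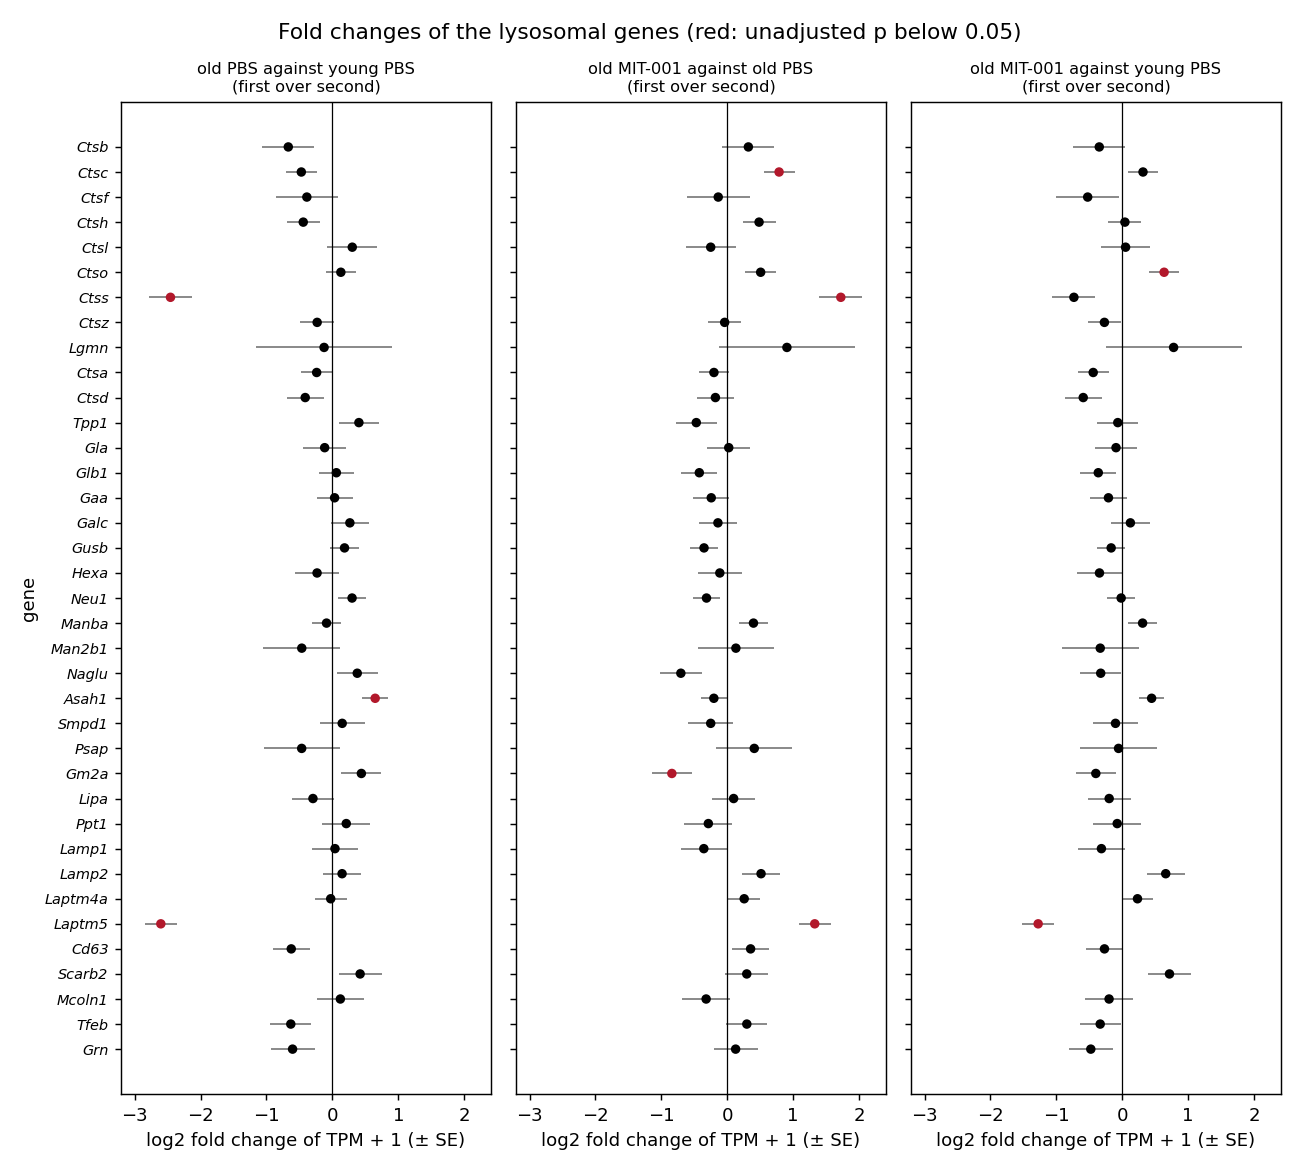
Log2 fold changes with standard errors for the 37 members in 3 panels, old PBS over young PBS, old MIT-001 over old PBS and old MIT-001 over young PBS, on the log2(TPM + 1) scale. Red points have an unadjusted p below 0.05. Laptm5 and Ctss lie farthest from 0 in the 2 comparisons that hold old PBS, and Lgmn has the widest error bar.

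Of the 86 other lysosomal genes tested, 39 were higher and 47 lower in old MIT-001 than in old PBS (median -0.03), 0 passed the adjusted threshold in limma, and 5 were higher and 1 lower at an unadjusted p below 0.05, against 7.45% higher and 4.36% lower of all genes. Ctsk, a collagen-degrading cysteine protease known from osteoclasts, was at 32.3 and 38.1 TPM in old MIT-001, at 2.77 and 12.5 TPM in old PBS, and at 24.9 and 30.1 TPM in young PBS. Old PBS was the group apart, with a log2 fold change of 2.34 ± 0.58 for old MIT-001 over old PBS (limma, unadjusted p = 0.00634, adjusted p = 0.216). Plbd1 was at 58.2 and 57.2 TPM in old MIT-001, at 141 and 149 TPM in old PBS, and at 85.7 and 47.0 TPM in young PBS. It was higher in both old PBS libraries than in the other 4, with a log2 fold change of -1.31 ± 0.30 for old MIT-001 over old PBS (limma, unadjusted p = 0.00459, adjusted p = 0.198). Acp5 (log2 fold change 0.65), Fnip1, a folliculin partner in nutrient signalling (0.80), and Cst7, an inhibitor of cathepsins in immune cells (0.99), were also higher at an unadjusted p below 0.05. Cst7 was under 2 TPM in every library and listed at 0 in 1 of them. Of the 86 genes, 20.9% were higher and 23.3% lower in old MIT-001 than in old PBS without overlap. These shares were 27.2% and 24.2% for all genes, and 43.2% and 35.1% for the members.

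Set against young PBS, old MIT-001 had lower Laptm5, with a log2 fold change of -1.28 ± 0.25 (limma, unadjusted p = 0.0019, adjusted p = 0.161), and a Ctss log2 fold change of -0.73 ± 0.33 (unadjusted p = 0.0644). Ctso, a cysteine protease on chromosome 3 from 81932601 to 81956725 (plus strand, Gene ID 229445), was the member with the smallest p among those higher. It was at 49.1 and 39.9 TPM in old MIT-001, at 29.3 and 32.6 TPM in old PBS, and at 24.9 and 31.8 TPM in young PBS. Old MIT-001 stood above the 4 PBS libraries, which overlapped each other, and the log2 fold change over young PBS was 0.63 ± 0.23 (limma, unadjusted p = 0.0331, adjusted p = 0.232). The surface epithelium and oviduct sums given above were likewise highest in the 2 old MIT-001 libraries, and all 7 surface epithelium markers were higher than in young PBS at an unadjusted p below 0.05. Their part in the Ctso values was not tested.

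In all, 11 members were higher and 26 lower in old MIT-001 than in young PBS, and 0 passed an adjusted p of 0.05 in limma, as did 0% of all genes. At an unadjusted p below 0.05, 1 was higher, against 17.1% of all genes, and 1 was lower, against 0.813% of all genes. Old MIT-001 was above both young libraries for 7 members (Ctso, Asah1, Lamp2, Scarb2, Manba, Ctsc and Laptm4a; 18.9% against 37.3% of all genes) and below both for 5 (Laptm5, Ctss, Ctsd, Ctsa and Gm2a; 13.5% against 6.56% of all genes). Ctsd was at 977 and 751 TPM in old MIT-001, at 1050 and 898 TPM in old PBS, and at 1246 and 1340 TPM in young PBS. The members' median was -0.20 against 0.24 for all genes, a difference of -0.44 that shrank to -0.03 without young PBS replicate 2 and grew to -0.88 without young PBS replicate 1. Among the 86 other lysosomal genes 0 passed the adjusted threshold, and 11 were higher and 2 lower at an unadjusted p below 0.05, against 17.1% higher and 0.813% lower of all genes. Fnip1 had the smallest p of these, at 13.9 and 11.6 TPM in old MIT-001, 5.42 and 8.62 TPM in old PBS, and 3.13 and 3.69 TPM in young PBS (log2 fold change over young PBS 1.64, adjusted p = 0.161 in limma). Also higher were Mitf and Zkscan3, a TFEB relative and a repressor of autophagy genes, with log2 fold changes of 1.07 and 1.03.

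Markers of macrophages moved with Laptm5 and Ctss. The 12 macrophage genes summed to 783 and 618 TPM in old MIT-001, 226 and 311 TPM in old PBS, and 1291 and 1238 TPM in young PBS, and none was at 0 in any library. All 12 were lower in old PBS than in young PBS without overlap (median log2 fold change -1.94), 10 of them at an unadjusted p below 0.05 and 2 past the adjusted threshold. All 12 were higher in old MIT-001 than in old PBS without overlap (median 1.14), 10 of them at an unadjusted p below 0.05 and 0 past the adjusted threshold. Adgre1, which encodes the macrophage surface protein F4/80, was at 12.1 and 10.2 TPM in old MIT-001, at 3.999 and 4.79 TPM in old PBS, and at 15.3 and 18.4 TPM in young PBS. Cd68, a lysosomal glycoprotein of macrophages, was at 33.0 and 35.8 TPM in old MIT-001, at 13.3 and 12.3 TPM in old PBS, and at 54.8 and 84.8 TPM in young PBS. Of the 12 macrophage genes, 11 were lower and 1 higher in old MIT-001 than in young PBS. Without overlap 8 were lower (66.7%, against 6.56% of all genes). Of 7 lipid-laden and giant macrophage genes tested, 3 were higher and 4 lower in old PBS than in young PBS. Between old MIT-001 and old PBS, 6 of the 7 were higher in old MIT-001 without overlap (85.7%, against 27.2% of all genes). The remaining 1 was lower without overlap (14.3%, against 24.2% of all genes). Adgre1 and Cd68 had the group order of Laptm5 and Ctss, and the part of macrophage number in Laptm5 and Ctss values was not tested. The members' summed TPM did not follow that order, at 11682 and 12714 in old MIT-001, 12621 and 10676 in old PBS, and 9392 and 19255 in young PBS.

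**Figure D5:**
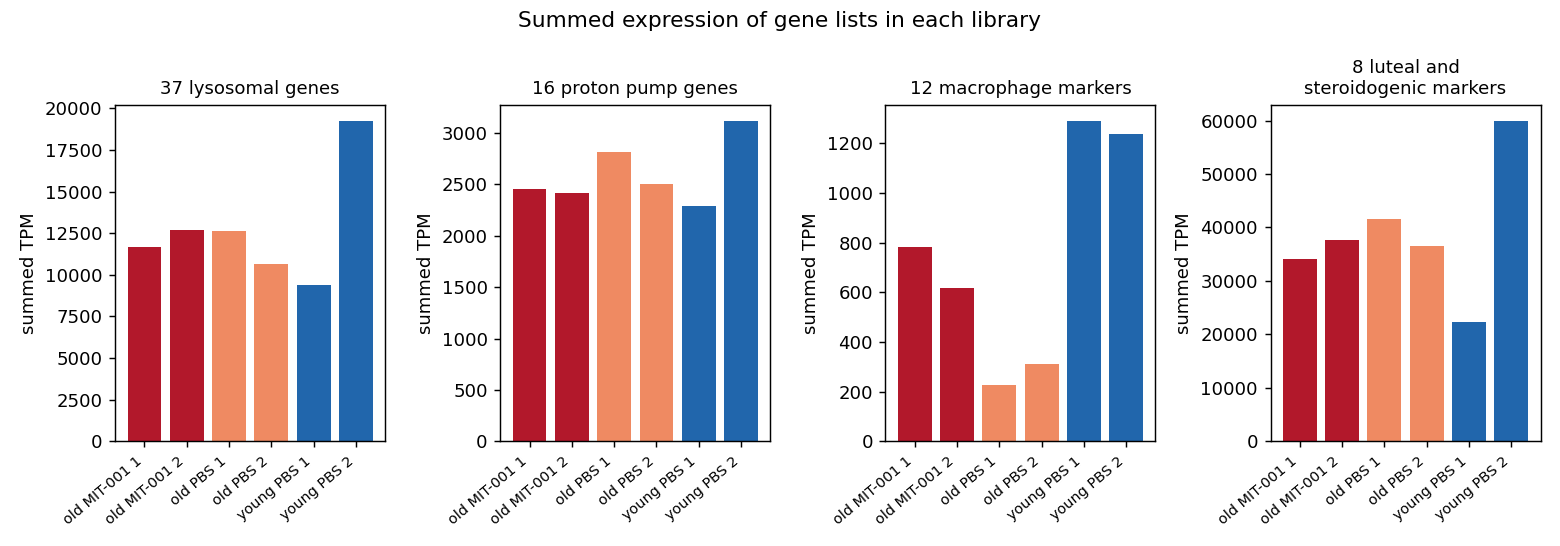
Summed TPM per library of the members, of 16 proton pump genes, of 12 macrophage markers and of 8 luteal and steroidogenic markers, with 1 bar per library and old MIT-001 at the left, then old PBS and young PBS. The macrophage sums (783 and 618, 226 and 311, 1291 and 1238 TPM) separate the groups, and the luteal and steroidogenic sums split the young PBS libraries (22224 and 59961 TPM) as the members' sums do.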

How the data were processed

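Ovaries were profiled by mRNA sequencing in 6 libraries, 2 for each of 3 groups taken from the labels alone. Per the labels' protocols, TRIzol was used for RNA extraction and a SMARTer kit for mRNA library preparation. In the submitters' processing notes, the tools named are Trimmomatic, HISAT2 and StringTie, with mm10. For versions, annotation and strand setting, the sources used here give none. Per the file headers, the main values are TPM, scaled for length and library total. FPKM, scaled for length and fragment number per the file headers, served as an alternative. The authors' coverage signal, a gene's mean read depth, was used only to estimate depth (6.34 to 7.14 gigabases per library). Read counts were not among the values used, and precision rests on the spread between libraries. Reads of paralogs and antisense genes may be shared between copies.

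Symbols came from a RefSeq gene table of GRCm38.p6 by Gene ID; 98 rows per library did not match (0.0145% to 0.0301% of TPM). The 16473 genes reaching 1 TPM in 2 or more libraries were tested. The log2(TPM + 1) values of all 6 libraries entered a single model, with a mean for each group, in limma 3.58.1 in R 4.3.3, with an intensity trend (residual degrees of freedom 3, prior 3.12). Two-sided p-values were adjusted over every gene tested (Benjamini-Hochberg), with a threshold of 0.05. Fold changes understate those of low genes. The procedure was tested on simulated data. Members and lists were chosen with earlier results of these data known. Members were described in full at an unadjusted p below 0.05 without overlap between groups, and at most 4 genes were named per other lysosomal list; further members were chosen as examples after their values were seen. A gene of those other lists is not reported here. The comparisons share libraries: old PBS serves 2 of them, as do young PBS and old MIT-001. Alternatives were no filter, a 5 TPM filter, a 0.1 pseudocount, FPKM, quantile normalization, median centring, rescaling after removal of mitochondrial, haemoglobin and immunoglobulin transcripts, a fit of the 4 libraries compared, a replicate block, no intensity trend, and leaving out each library.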

Additional observations from a re-analysis of the deposited data

How the results depend on the processing

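None of the 9 member fold changes at an unadjusted p below 0.05 (Laptm5 in 3 comparisons, Ctss in 2, and Ctsc, Gm2a, Asah1 and Ctso in 1 each) changed direction under the 16 alternatives. These 9 had been picked for groups that did not overlap, so leaving out any single library could not reverse them. The changed filters, the fit of 4 libraries, the replicate block and the fit without an intensity trend leave fold changes as they were. Only the remaining alternatives could have changed a direction. Fold changes of other lysosomal genes were not run singly under the alternatives. The log2 fold change of old PBS over young PBS ranged from -2.92 to -2.38 for Laptm5 (adjusted p 0.0342 to 0.465) and from -2.81 to -2.11 for Ctss (0.0412 to 0.521). That of old MIT-001 over old PBS ranged from 1.19 to 1.46 for Laptm5 (0.0398 to 0.802) and from 1.37 to 2.07 for Ctss (0.0617 to 0.786). All tests named here are limma's, and the cause of each shift was not tested unless the setting itself shows it. The share of all genes at an unadjusted p below 0.05 was not computed under the alternatives. Member counts at that p under them, given below, therefore cannot be set against all genes or read as particular to the members.

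For old PBS against young PBS, 0 members passed the adjusted threshold, and 1 (Laptm5) did with FPKM, with median centring and with quantile normalization. Leaving out single libraries gave 0 to 7 calls. The 7 came without young PBS replicate 1, where the lone young library is assumed to vary like the other groups and 7.12% of all genes passed (Ctsb, Ctsf, Ctss, Man2b1, Lipa, Laptm5 and Grn). Members higher at an unadjusted p below 0.05 (1) were 0 with FPKM and with centring, and 0 to 14 without single libraries, 14 without young PBS replicate 2. Members lower (2) were 6 with FPKM, 8 with centring, 4 with quantile normalization and 2 to 15 without single libraries, 15 without young PBS replicate 1. The members' median (-0.09) was -0.41 after centring and -0.38 to 0.30 without single libraries.

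Between old MIT-001 and old PBS, calls numbered 1 (Laptm5) in the fit of 4 libraries, where 2.16% of all genes passed, and 0 to 1 without single libraries, 1 (Laptm5) without either young PBS library. Members higher (3) were 5 with quantile normalization, 6 in the fit of 4 libraries and 2 to 6 without single libraries, 6 without either young PBS library. Members lower (1) were 2 with no filter, FPKM or quantile normalization, 3 in the fit of 4 libraries, and 0 to 3 without single libraries, 0 without any 1 of the 4 old libraries. The median stayed between -0.06 and 0.06 without single libraries.

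For old MIT-001 against young PBS, 0 members passed under every alternative. Members higher (1) were 3 with no filter, 0 with FPKM, centring or the fit of 4 libraries, and 0 to 7 without single libraries, 7 without young PBS replicate 2 and 0 without any 1 of the 4 old libraries. Members lower (1) were 4 with FPKM, 9 with centring and 1 to 20 without single libraries, 20 without young PBS replicate 1. The median (-0.20) was -0.61 after centring and -0.55 to 0.22 without single libraries.

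With replicate number as a block, members lower in old MIT-001 than in old PBS were 0 in place of 1, and no other count of calls was moved by over 1.5 times. The numbers pair the libraries by no label, and the correlation across genes of the replicate differences was 0.18 between old MIT-001 and old PBS, 0.24 between old MIT-001 and young PBS and 0.01 between old PBS and young PBS.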
